A study of Homo sapiens with 6 samples.

Results

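The sites described here are 680 accessible regions of control DAMI cells with a high peak area and no peak called nearby in HMGA1-silenced cells. They were chosen by 2 readouts of the deposited peak lists: a peak area of 700 or more in the control list, and no shHMGA1 peak within 1000 bp of either edge. Only chromosomes 1 to 22 were used, and the dense segments on chromosome 4 (from 154 to 189 Mb, hg19) and chromosome 9 (from 2 to 21 Mb) were left out. The sites are 680 of 127153 control peaks in all, and 680 of the 46144 control peaks that met the area limit in the same territory. They are called control-only sites below.

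DAMI is a human leukaemia cell line, labelled as leukemic cells of MPN/AML (myeloproliferative neoplasm and acute myeloid leukaemia). One group of 3 samples was infected with a control lentivirus, and the other group of 3 samples with a lentivirus carrying a short hairpin RNA against HMGA1 (shHMGA1). ATAC-seq was used to find open chromatin: the Tn5 transposase cuts exposed DNA and joins adapters to it, so that accessible stretches yield reads. The sources used here do not state the hairpin sequence, the time after infection or the degree of silencing. The data analysed were 1 peak list per group on hg19, with 127153 control and 112610 shHMGA1 peaks. With 1 list per group there is no replicate check, and read depth is unknown. No difference below therefore has a p-value, and every interval covers counting error only and treats neighbouring peaks as independent. The identity of the line could not be set against marker genes, because no hg19 gene annotation was used, and genes at the sites are not named for the same reason.

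HMGA1 is a small architectural chromatin protein whose AT-hook motifs bind the minor groove of AT-rich DNA and bend it. It is abundant in stem and cancer cells and low in most differentiated tissues. Accessible regions of a blood cell are mostly promoters and distal enhancers, held open by lineage transcription factors and chromatin remodellers. An ATAC-seq peak marks such a region, and its deposited area grows with the significance along the peak and with its width, so that a peak can be large by being tall or by being wide. Height below is area divided by width in bp. Whether the peak caller subtracts its significance threshold before summing is not stated in the sources used here, so a height is a relative value within the control list and not a mean −log10 p.

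Control peaks of area 700 or more without a called counterpart were rare. Among the 46144 control peaks of area 700 or more, 1.47% were control-only sites, against 20.9% of the 104364 control peaks of any area in the same territory that had no shHMGA1 peak within 1000 bp. The largest control-only site had an area of 2335, and 17160 control peaks of the same territory were larger than that. Against the 28984 control peaks of the same area range, from 700 to 2335, the sites made up 2.35% (exact interval 2.17 to 2.53). These shares are fixed in part by the rule and are given as a description. Before the distance limit was applied, 878 peaks lacked an overlapping shHMGA1 peak, and 198 of those had one at 1000 bp or nearer.

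The share of control-only sites was lower in each larger area class. It was 6.81% (exact interval 6.08 to 7.60) for areas from 700 to 800, with 299 sites of 4391 peaks. From 800 to 900 it was 4.30% (157 of 3647), and from 900 to 1000 it was 3.40% (103 of 3033). It was 1.68% (80 of 4768) from 1000 to 1200 and 0.562% (29 of 5160) from 1200 to 1500. Above 1500 only 12 of 7985 peaks were control-only sites, 0.150% (exact interval 0.0777 to 0.262). Thus 44.0% of all the sites lay in the lowest class, next to the limit.

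**Figure D1:**
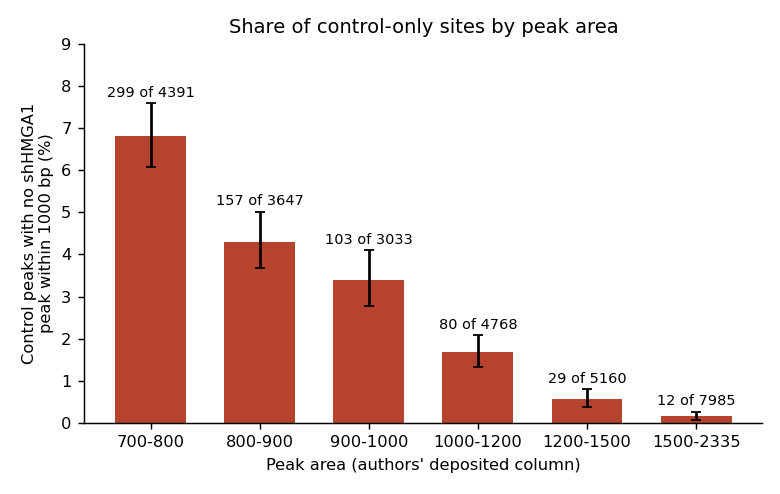
Percentage of control peaks (vertical axis) that had no shHMGA1 peak within 1000 bp, in 6 classes of peak area (horizontal axis); bars give the share, whiskers the 95% exact binomial interval, and labels the counts. The share goes from 6.81% at areas of 700 to 800 down to 0.150% above 1500.

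The limits cut through a continuous range. The control-only sites just inside the area limit had areas of 700.1 on chromosome 10 from 107501957 to 107502327, 700.5 on chromosome 6 from 133718870 to 133719195, and 700.9 on chromosome 9 from 123349783 to 123350360. Unmatched control peaks just outside it had areas of 699.96, 699.6 and 699.1. At the distance limit, sites on chromosome 1 starting at 39250025 and 85788957 and on chromosome 2 at 127842376 had an shHMGA1 peak 1002, 1005 and 1019 bp away. Large control peaks just outside had one 985, 981 and 979 bp away.

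Control-only sites were low and broad for their area. Height is computed from the area that the rule used, so heights and widths are given as a description. Their median height was 1.30 (interval 1.25 to 1.34, n = 680), against 1.93 (1.92 to 1.94) in the 28304 other control peaks of the same area range. Of the sites, 587 (86.3%) were lower than that median of the others. Their median width was 666 bp (interval 634 to 696), against 636 bp (632 to 641) in the others. The difference in width was small because the sites also had the smaller areas, with a median of 820 against 1147.

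Within an area class the shapes stood further apart. From 700 to 800 the median width was 609 bp in control-only sites and 491 bp in the others, and the median height 1.22 and 1.53. From 1000 to 1200 the widths were 746 and 595 bp, and the heights 1.46 and 1.83. Above 1500 the medians were 1206.5 and 812 bp for width, and 1.35 and 2.29 for height, with only 12 sites. In each of the 6 area classes the sites had the wider and lower median. The share of control-only sites was 8.69% (156 of 1796, exact interval 7.42 to 10.1) among peaks of height below 1 and 4.37% (281 of 6434) between 1 and 1.5. It was 2.14% (163 of 7630) between 1.5 and 2, and 0.332% (12 of 3619, exact interval 0.171 to 0.578) at 3 or more.

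**Figure D2:**
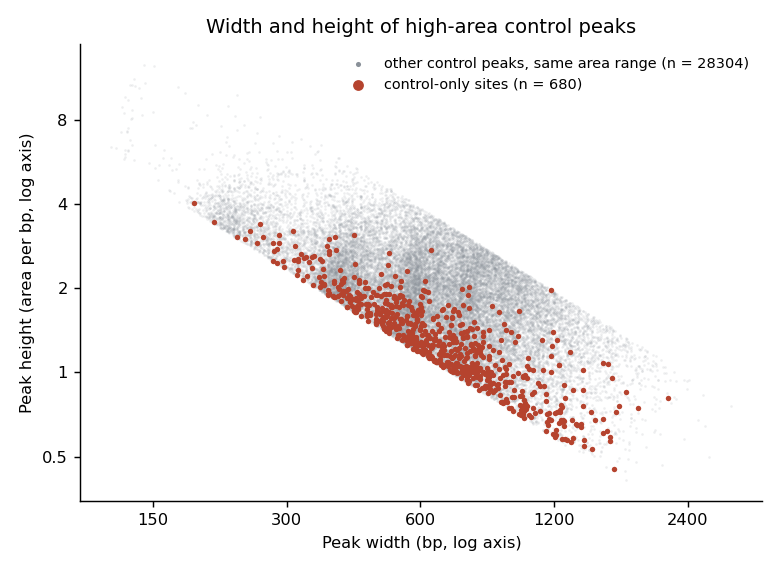
Width in bp (horizontal log axis) and height as area per bp (vertical log axis) of each control peak with an area of 700 to 2335; red points are the 680 control-only sites and grey points the 28304 other peaks. The straight lower edge of the cloud is the area limit of 700, and the red points crowd along it, with 86.3% of them below the median height of the grey points.

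Summits of the control-only sites were modest. The authors' summit value, a −log10 p, had a median of 5.50 (interval 5.40 to 5.59) in the sites and 7.05 (7.03 to 7.08) in the others of the same area range. It ran from 3.77 to 8.88 among the sites. Over the 104364 control peaks of any area in the territory the median summit value was 5.39 and the median height 1.52. Over the 680 sites height and summit went together (Spearman rho 0.72, across peaks of 1 list, which are not independent replicates), and height and width went opposite ways (rho -0.88), a relation that the narrow range of areas largely fixes. Most summits lay centrally: 473 of 680 sites (69.6%) had the summit in the middle 50% of the width, against 76.7% of the others. Few sites were narrow spikes. There were 17 of 300 bp or less (2.5%, against 5.80% of the others) and 108 of 1 kb or more (15.9%, against 12.8%).

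The largest control-only site was on chromosome 8 from 47159858 to 47161038 (8q11.1), 1181 bp wide, with an area of 2335 and a summit value of 6.39. It lay in the band of the centromere itself, 1574 bp from the closest shHMGA1 peak. It ranked 20679 among all control peaks by area. Second was a broad, low site on chromosome 9 from 90734736 to 90736895 (9q22.1), whose area of 1744 came from a width of 2160 bp at a height of 0.808. It was the widest of all the sites, and a small shHMGA1 peak of area 203 lay 1456 bp from it.

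The third largest had another shape. On chromosome 20 from 23714905 to 23715539 (20p11.21), a peak of only 635 bp reached a height of 2.74, above 82.6% of control peaks of the area range, with an area of 1739 and the nearest shHMGA1 peak at 10307 bp. The following sites were on chromosome 4 from 190401231 to 190402817 (4q35.2, area 1695), chromosome 1 from 146555620 to 146556813 (1q21.1, area 1668) and chromosome 9 from 86579904 to 86581446 (9q21.32, area 1661). The site on 1q21.1 had no other control peak within 50 kb. The last 4 of the 10 largest began at 4727582 on chromosome 6 (6p25.1, area 1660), 35657395 on chromosome 19 (19q13.12, 1598), 114394496 on chromosome 11 (11q23.2, 1566) and 131363754 on chromosome 12 (12q24.33, 1546). Of these 10 sites 5 lay within 5 Mb of a chromosome end or a centromere band, against 113 of all 680 (16.6%).

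By summit value the leading control-only sites were others. The highest, 8.88, was on chromosome 8 from 74015501 to 74015873 (8q21.11), 373 bp wide with an area of 1017. Sites on chromosome 18 from 33441865 to 33442390 (18q12.2), chromosome 6 from 170107918 to 170108291 (6q27), chromosome 2 from 208288403 to 208289148 (2q33.3) and chromosome 6 from 115289355 to 115289863 (6q22.1) followed with 8.26, 8.23, 8.18 and 8.04. The site on 6q27 lay only 4670 bp from a shared control peak of area 13289, and 14743 bp from another control-only site. In contrast the site on 18q12.2 had no control or shHMGA1 peak within 50 kb on either side. No control-only site ranked above 20500 among all control peaks by summit value.

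The tallest sites per base were short. A peak of 186 bp on chromosome 2 from 200260151 to 200260336 (2q33.1) had a height of 4.03, the greatest of all the sites. It was followed by a peak of 206 bp on chromosome 2 from 239867526 to 239867731 (2q37.3, height 3.46) and one of 261 bp on chromosome 10 from 30707692 to 30707952 (10p11.23, height 3.39). The widest sites after the one on 9q22.1 were both on distal chromosome 15. Those at 102002718 to 102004566 and 101342800 to 101344539 (both 15q26.3) were 1849 and 1740 bp wide, with heights of 0.748 and 0.848.

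Most control-only sites lay in neighbourhoods where other peaks were present in both lists. The median distance to the nearest shHMGA1 peak was 6507.5 bp (interval 5762 to 7204), with quartiles of 2660.5 and 14401 bp. That distance was 1000 to 2000 bp for 119 sites (17.5%), 2000 to 5000 bp for 168 (24.7%), 5000 to 10000 bp for 158 (23.2%) and 10000 to 50000 bp for 197 (29.0%). Beyond 50000 bp lay 28 sites up to 100000 bp and 10 farther. The nearest shHMGA1 peak itself overlapped a control peak for 608 of the 680 sites (89.4%).

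The next shared control peak, one that overlapped an shHMGA1 peak by at least 1 bp, was at a median of 7137 bp (interval 6286 to 7819). For the other control peaks of the area range the median was 5146.5 bp (4998 to 5279). A gap under 1000 bp was left to 9 sites by the rule, since a shared control peak nearby usually brings an shHMGA1 peak into the excluded distance, whereas 6239 of the others (22.04%) had one. The upper quartiles were close, at 15819 and 15232 bp. Neighbouring shared peaks were of like size, with a median area of 897 beside control-only sites and 904 beside the others. The single nearest control peak of any kind was shared for 437 of 680 sites (64.3%) and for 76.0% of the others.

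**Figure D3:**
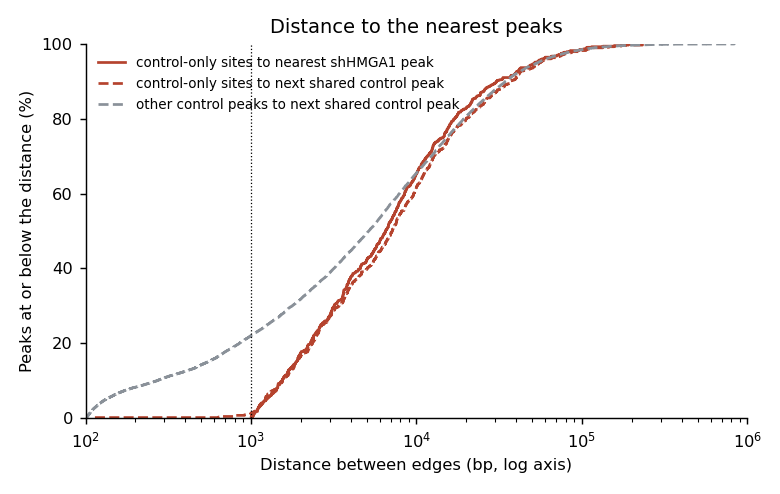
Cumulative percentage of peaks (vertical axis) by the distance between edges in bp (horizontal log axis), for control-only sites to the nearest shHMGA1 peak (red, solid) and to the next shared control peak (red, dashed), and for the other control peaks of the area range to the next shared control peak (grey, dashed); the dotted line marks the 1000 bp of the rule. The solid red curve starts at the rule's limit and the dashed red curve has 9 sites below it, and both run close to the grey curve above about 10000 bp, with medians of 6507.5, 7137 and 5146.5 bp.

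A few control-only sites stood far from any peak of the silenced cells. The farthest, on chromosome 10 from 123365864 to 123366479 (10q26.13), was 232037 bp from the nearest shHMGA1 peak, but another control peak lay 1756 bp away. The next, on chromosome 9 from 117973794 to 117974386 (9q33.1), was 183978 bp away from one and 135775 bp from any other control peak. Sites on chromosome 2 from 114910311 to 114910949 (2q14.1), chromosome 16 from 49732185 to 49732743 (16q12.1) and chromosome 15 from 25379297 to 25379722 (15q11.2) were at 172721, 156683 and 133692 bp. All of these sites were 426 to 639 bp wide and had areas from 715 to 1201, so they were not the largest of the set. Area and distance to the nearest shHMGA1 peak were nearly unrelated over the 680 sites (Spearman rho 0.02).

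The surroundings of control-only sites also held fewer shHMGA1 peaks. Within 500 kb on either side, leaving out the nearest 1000 bp, there were 41470 control and 33653 shHMGA1 peaks around the sites, a ratio of 0.812. Around the other control peaks of the area range the ratio was 0.883, and over the whole territory 0.878. Of the surrounding control peaks 31.3% overlapped no shHMGA1 peak, against 25.2% around the others. Fewer shHMGA1 than control peaks were counted around 619 of the 680 sites (91.0%), against 79.7% of the others. Within 50 kb the ratios were 0.793 and 0.885. Neighbouring windows overlap, so some peaks were counted more than once. The number of control peaks around a site was similar, with a median of 52 within 500 kb for the sites and 50 for the others.

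Control-only sites were mostly single. Of the 680, 85 (12.5%, exact interval 10.1 to 15.2) had another within 100 kb, in 38 pairs and 3 groups of 3, and 595 had none. The median distance from a site to the next one was 916419 bp. Among the 2421 control peaks of the area range that lay within 100 kb of a control-only site, not counting a site as its own neighbour, 85 were themselves sites, 3.51% (exact interval 2.81 to 4.32) against 2.35% of the whole area range, 1.496 times as high. Within 10 kb the share was 5.86% (18 of 307, 3.51 to 9.11), and within 500 kb 3.17% (256 of 8087, 2.79 to 3.57). The rule keeps the 1000 bp beside a site free of shHMGA1 peaks, so a very close neighbour meets the distance limit more easily. How much this adds to the share within 10 kb was not tested.

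Since the share of sites varied with area and height, the peaks of the area range were divided into 5 area classes and each of these into 5 height classes, and the share of sites in each class was applied to the peaks of a region. The peaks within 100 kb of a site would by this count hold 65.6 sites. The 85 found are 1.30 times that number, and within 10 kb the 18 found are 1.98 times the 9.08 so given. The numbers given by area and height make no allowance for the empty flanks that the rule sets.

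The 3 groups of 3 lay on chromosomes 11, 2 and 3. In 11q24.3 the sites at 128852397 to 128853298, 128928396 to 128929165 and 128945527 to 128946304 had areas of 1067, 755 and 977, with shHMGA1 peaks 2355, 1048 and 7419 bp away. Their span of 93908 bp held 21 control and 11 shHMGA1 peaks, and 12 of the control peaks were unshared. This band carries FLI1 and ETS1, which encode ETS transcription factors of blood cells. Where those genes lie relative to the sites was not annotated here.

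In 2p25.3 the sites at 3432677 to 3433250, 3455387 to 3456165 and 3519091 to 3519593 had areas of 959, 817 and 705. They stood among 7 control and 2 shHMGA1 peaks within 86917 bp, and 6 of the 7 control peaks were unshared. In 3p25.3 the sites at 8797218 to 8797747, 8893386 to 8894314 and 8927354 to 8927777 had areas of 913, 974 and 776. There 9 control and 2 shHMGA1 peaks were counted in 130560 bp, and the middle site was 58951 bp from the nearest shHMGA1 peak. Here 7 of the 9 control peaks, large and small, were unshared.

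Control-only sites were found on each of the 22 chromosomes. The largest numbers were on chromosomes with many control peaks of the area range. Chromosome 1 held 84 of 3301 (2.54%), chromosome 2 held 78 of 3244 (2.40%) and chromosome 3 held 58 of 2142 (2.71%). Chromosome 11 held 51 of 1661 (3.07%) and chromosome 6 held 50 of 2234 (2.24%). The exact intervals of these shares include the 2.35% of all 22 chromosomes. As a share of control peaks of the area range the highest values were 3.38% on chromosome 21 (27 of 799, exact interval 2.24 to 4.88), 3.07% on chromosome 11 (51 of 1661, 2.29 to 4.02) and 3.06% on chromosome 20 (13 of 425, 1.64 to 5.17). All 3 intervals include the overall 2.35%. The lowest shares were 0.402% on chromosome 22 (1 of 249, 0.0102 to 2.22) and 0.825% on chromosome 19 (5 of 606, 0.268 to 1.91), and these were the only chromosomes whose interval left out the overall share. Chromosome 17 had the next lowest share, 1.38% (10 of 727, 0.662 to 2.52), with an interval that includes the 2.35%.

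The shapes of the peaks differed between chromosomes. The median height of control peaks of the area range was 1.44 on chromosome 21, the lowest of the 22 chromosomes, and 2.17 on chromosome 19, the highest. From area and height chromosome 21 would hold 27.8 sites, so its 27 were 0.972 times that number. Chromosome 19 held 0.564 times the 8.87 so given, and chromosome 22 had 1 site against 3.86. Chromosome 11 held 1.27 times the number given, chromosome 10 1.39 times and chromosome 20 1.46 times.

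**Figure D4:**
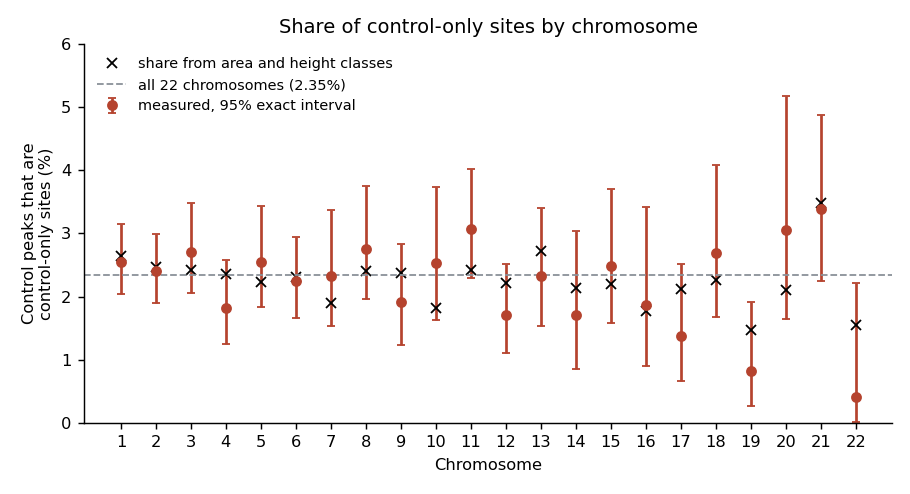
Control-only sites as a percentage of control peaks with an area of 700 to 2335 (vertical axis) on each chromosome (horizontal axis); points are measured shares with 95% exact binomial intervals, crosses the share given by the area and height classes of the peaks, and the dashed line the 2.35% of all 22 chromosomes. Chromosomes 19 (0.825%) and 22 (0.402%) are the ones whose interval lies below the line, and on chromosome 21 (3.38%) point and cross nearly coincide.

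Chromosome bands differ in their Giemsa stain, which is lighter in gene-rich DNA. Control-only sites made up 2.22% of the peaks in unstained bands (319 of 14348, exact interval 1.99 to 2.48) and 2.34% in the darkest bands (106 of 4528, 1.92 to 2.82). Of the 5 stain classes from unstained to darkest, class 50 had the highest share, 3.03% (109 of 3593, 2.497 to 3.65), and class 25 the lowest, 1.58% (35 of 2209, 1.11 to 2.20). It did not follow the order of the stain. Within 5 Mb of a chromosome end lay 59 sites (8.68%, against 7.41% of the others), and within 5 Mb of a centromere band 54 (7.94%, against 6.53%).

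In 5-Mb bins the number of sites varied, and so did the number of control peaks of the area range. Of 558 bins with control peaks of the area range, 228 held no control-only site, 148 held 1, 96 held 2, and 86 held 3 or more. The median bin held 48 control peaks of the range, for which the share of all bins gives 1.13 sites. Empty bins are therefore also found where sites follow peak numbers alone, and how many was not worked out. In 17 bins there were 3 or more sites at 3 or more times the overall share. These bins held 82 sites (12.1%) but 892 control peaks of the range (3.08%). They were picked by their share, and in 9 of them the exact interval lay above the overall share.

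The bin with the most sites was on chromosome 11 from 125000001 to 130000000 (11q24.2 and 11q24.3), with 13 of 155 peaks. That is 8.39% (exact interval 4.54 to 13.9), or 3.57 times the overall share, and 2.11 times the 6.17 sites given by area and height. Its sites had areas from 712 to 1271 and widths from 583 to 1675 bp, and were low, with a median height of 1.00. The band 11q24.3, which runs past the end of the bin, held 12 control-only sites among 119 peaks (10.1%, 5.32 to 16.95), the most of any band. The bin as a whole held 679 control and 431 shHMGA1 peaks.

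Next by number was chromosome 21 from 30000001 to 35000000 (21q21.3 and 21q22.11), with 11 of 163 peaks (6.75%, 3.42 to 11.8), 1.79 times the number given by area and height. The first of these 11 sites began at 30075525 and the last ended at 32385260. A bin on chromosome 1 from 215000001 to 220000000 (1q41) held 9 of 79 peaks (11.4%, 5.34 to 20.5), which is 4.86 times the overall share and 3.33 times the number given. The band 1q41 carries TGFB2, a gene of a transforming growth factor. Whether any site lies at this gene was not annotated here.

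Among bins with at least 3 control-only sites, those of highest share lay on the short arm of chromosome 20. From 20000001 to 25000000 (20p11.23 and 20p11.21) 5 of only 22 peaks were control-only sites, 22.7% (exact interval 7.82 to 45.4), 9.69 times the overall share. They had a median height of 2.12, and area and height gave 0.325 sites. The neighbouring bin from 15000001 to 20000000 (20p12.1 and 20p11.23) held 4 of 32 (12.5%, 3.51 to 29.0). Next among bins with at least 3 sites were 1q41, the first 5 Mb of chromosome 2 (2p25.3, 5 of 48, 10.4%, 3.47 to 22.7) and chromosome 10 from 30000001 to 35000000 (10p11.21 to 10p11.23, 5 of 50, 10.0%, 3.33 to 21.8). With so few sites in a bin, the intervals are wide.

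Bins rich in large peaks but without control-only sites were also seen. On chromosome 2 from 160000001 to 165000000 none of 103 peaks was one, which allows a share of up to 2.91%. On chromosome 1 there was none among 101 peaks from 40000001 to 45000000, nor among 101 from 95000001 to 100000000, each of which allows up to 2.97%. These limits do not lie below the overall 2.35%. The bin with the most peaks of the range, chromosome 9 from 25000001 to 30000000, had 2 control-only sites among 305 (0.656%, exact interval 0.0795 to 2.349) where area and height gave 9.80.

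In several bins with many control-only sites the weak control peaks were also often unshared. Weak control peaks, those of area under 700, are not part of the sites, and 44.9% of the 58220 in the territory overlapped no shHMGA1 peak. In the chromosome 11 bin 302 of 430 weak peaks were unshared (70.2%), and in the 1q41 bin 138 of 215 (64.2%). The share was 62.1% in the first 5 Mb of chromosome 2, and 69.1% and 55.0% in the bins on chromosome 20 from 15 and 20 Mb. Of the 17 bins above, 13 had more than 44.9% of weak peaks unshared, as did 250 of all 544 bins with at least 20 weak control peaks (46.0%). The lowest of the 17 was the bin on chromosome 7 from 15000001 to 20000000 with 33.0%, and the bin on chromosome 10 from 30000001 had 38.1%.

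All bins with at least 20 weak control peaks were then put in 5 equal groups by that share. From the group with the lowest share of unshared weak peaks (15 to 35%) to that with the highest (52.6 to 70.2%), control-only sites made up 1.03% (55 of 5344, exact interval 0.776 to 1.34), 1.92%, 2.13%, 2.82% and 3.71% (219 of 5905, 3.24 to 4.22) of the peaks of the area range. Relative to the number given by area and height the values were 0.487, 0.886, 0.906, 1.13 and 1.43. Over 507 bins with at least 20 peaks of each kind, the Spearman rho between both shares was 0.35, a description of bins that share the same lists.

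**Figure D5:**
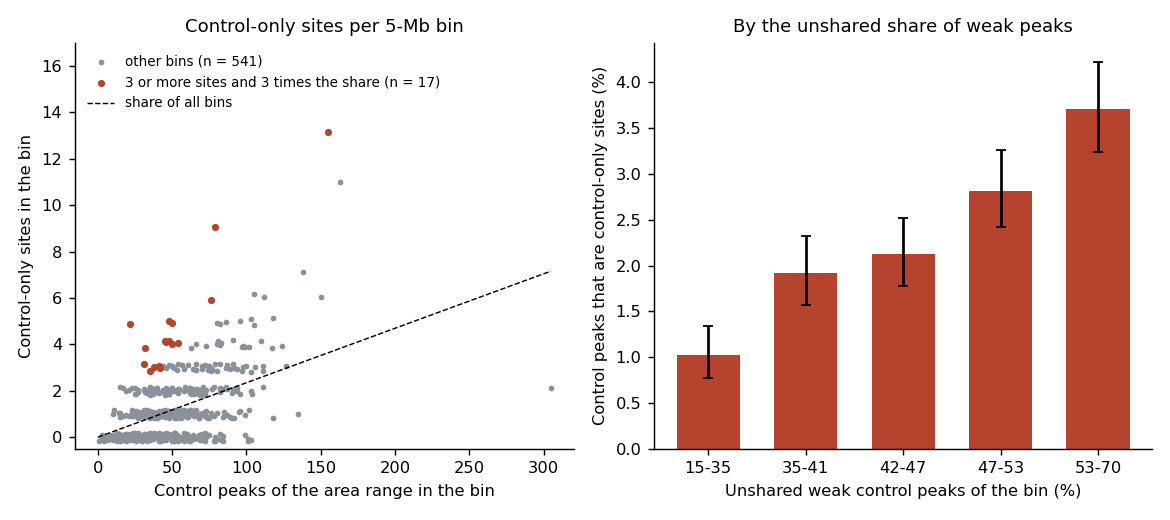
Left, number of control-only sites (vertical axis, points jittered) against the number of control peaks with an area of 700 to 2335 (horizontal axis) in each of 558 5-Mb bins, with the 17 bins of 3 or more sites at 3 or more times the overall share in red and the overall share as a dashed line. Right, percentage of those peaks that were control-only sites (vertical axis, whiskers 95% exact binomial intervals) in the 5 groups of bins ordered by the percentage of unshared weak control peaks (horizontal axis), going from 1.03% to 3.71%.

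The same rule with the lists exchanged gave fewer sites. Of 41628 shHMGA1 peaks with an area of 700 or more, 324 had no control peak within 1000 bp (0.778%, exact interval 0.696 to 0.867). Control-only sites were thus 67.7% of the 1004 unmatched large peaks of both lists (exact interval 64.7 to 70.6). Areas depend on the depth behind each list, which is unknown, so the same limit may not select the same peaks in both. Shapes were close, with a median width of 645.5 bp and a median height of 1.37 in the shHMGA1-only sites. On chromosome 11 there were 51 control-only and 10 shHMGA1-only sites, while chromosome 19 held 5 and 6. The lists as a whole also differed there. Chromosome 11 had 6190 control and 5071 shHMGA1 peaks of any area, a ratio of 0.819. Chromosome 19 had 2067 and 1965, a ratio of 0.951. The bins on 11q and 1q41 with 13 and 9 control-only sites held no shHMGA1-only site, among 431 and 219 shHMGA1 peaks of any area. Control peaks of any area numbered 679 and 317 in these bins. Over the 5 groups of bins ordered by unshared weak control peaks the shHMGA1-only sites numbered 76, 74, 64, 57 and 52, the opposite order to the 55, 105, 127, 174 and 219 control-only sites. Large shHMGA1 peaks were not counted by chromosome, bin or group, so the shHMGA1-only numbers are counts and not shares. The groups were also ordered with the same shHMGA1 list, so their order is a description.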

How the data were processed

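ATAC-seq was done on 6 DAMI samples in 2 groups of 3. The deposited files hold 1 narrowPeak list per group, assigned by the group in its name. Peaks were called with Genrich on hg19, per the submitters' processing notes. Its version and settings, the aligner and the handling of the 3 samples were not given in the sources used here. The authors' signal column is the peak area, and their score is 1000 times area divided by width, capped at 1000 (checked in 127153 of 127153 control rows). Their deposited summit value is a −log10 p.

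The rule was applied in Python 3.11.15 (pandas 2.3.3, numpy 2.4.6, scipy 1.17.1). It gave the same 680 sites as bedtools 2.31.1, and recovered 500 of 500 sites planted in simulated lists. The planted sites met the limits by construction, so this checks the code only. Positions count from 1, distances are bases between edges, and bands come from the hg19 table of circlize 0.4.16. Shares have 95% exact (Clopper-Pearson) intervals and medians 95% order-statistic intervals; where none was found, 3 counts set the limit. Sites were named by rule: the 10 largest, 5 highest summits, 5 farthest from shHMGA1 peaks, 3 tallest, 3 widest, groups of 3, the 5 bins of highest share among those with at least 3 sites, and 3 on each side of each limit. Chromosomes and other bins were named after their values were seen. Area and height classes, weak-peak groups, surroundings and exchanged lists were added after seeing the data. Sites and lists were chosen with earlier results of these data known. Planned gene lists and sequence features were not analysed here, because the reference tables were not on hg19.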

Additional observations from a re-analysis of the deposited data

Results flagged for a closer look

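Territory left out of the rule also held control peaks that met the area and distance limits. The dense segment of chromosome 4 had 62 among 4107 peaks of the area range (1.51%, exact interval 1.16 to 1.93), with a median width of 953 bp and a median height of 0.954. The dense segment of chromosome 9 had 15 among 2718 (0.552%, 0.309 to 0.909). Chromosome X had 14 among 482 (2.90%, 1.60 to 4.83), with a median width of 543.5 bp. The interval for chromosome X includes the 2.35% of chromosomes 1 to 22, and the intervals for both segments lie below it.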

How the results depend on the processing

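Of 40 recomputed values, 15 stayed within the interval of the reported value or, for numbers of sites or bins, within 1.5 times it; the rest are given here, and the cause was not tested. An area limit of 1000 left 121 sites (0.675% of peaks of the range), with a median width of 782 bp, a median height of 1.44, 3.31% with another site within 100 kb and 5 raised bins. Dropping the distance, so that lack of overlap was enough, gave a share of 3.03%, with 16.5% near another site and a median distance to the next shared peak of 4129 bp. A distance of 5000 bp left 393 sites (1.64%), with a median height of 1.35, 5.60% near another and 12704 bp to the next shared peak. Keeping the dense segments gave 2.11%, a median height of 1.25, 15.9% near another and 6216 bp. Merging control peaks within 150 bp gave 2.67%, a median width of 703 bp, a median height of 1.24 and 16.3% near another. With 25 kb or 500 kb in place of 100 kb, 4.41% or 37.6% of sites had another nearby. Bins of 10 Mb gave 3 raised bins in place of 17, and the comparison of bins with area and height, added after seeing the data, gave 16. No paired analysis was possible because the lists carry no values for single samples, so leaving out a replicate was not possible either. Unknown read depth limits every statement on a missing peak.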
